A study of Schizosaccharomyces pombe with 3 samples.

Results

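The 10 genes described here encode the catalytic, scaffold and regulatory subunits of the protein phosphatases PP1 and PP2A of fission yeast, Schizosaccharomyces pombe, with ppe1, the catalytic subunit of a related PP6-type phosphatase. They were chosen by name, as genes whose symbol in lower case in the probe annotation equalled that of a listed phosphatase gene, and all 10 were found among the 2896 fission yeast genes measured. They comprise the 3 PP1 genes dis2, sds21 and sds22, the 6 PP2A genes ppa1, ppa2, paa1, pab1, par1 and par2, and ppe1, and each had 1 probe set. Here all genes means the 2896 with an assigned probe set. A further 5224 probe sets had no gene assigned, so percentiles and shares are not those of the whole genome. Total RNA was measured on 3 Affymetrix arrays, 1 per sample, which formed 1 group. The cells were labelled wild type, of the plus mating type (h+), and carried leu1-32, ade6-210 and ura4-DS/E, alleles of genes for leucine, adenine and uracil synthesis. The liquid culture medium was YEA, which is rich in nutrients, and the temperature was 30 degrees. All arrays share these marker alleles, and there was no other strain, treatment or time. Nothing in the labels states that the samples were separate cultures, so p-values measure only the spread between the 3 samples, and that spread may be technical.

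Protein phosphatases remove phosphate from proteins and so reverse the action of kinases. PP1 consists of a catalytic subunit bound to one of many regulatory or targeting subunits, and in fission yeast it is known for its role in chromosome separation and exit from mitosis, where it opposes cyclin-dependent kinase. PP2A is usually a trimer, in which a scaffold (A) subunit joins a catalytic (C) subunit to an interchangeable regulatory (B) subunit that selects substrates. In fission yeast PP2A is known for its roles in the timing of mitosis, cell shape and septation.

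Values are signal intensities made by the authors with MAS5, the Affymetrix software that reduces the probes of a probe set to a single signal, and they are given here as deposited or as log2 of the deposited signal. The brightness of a probe set depends on the sequence of its probes as well as on the amount of transcript. A difference between 2 genes is therefore a difference in signal on these arrays and not a measured difference in transcript number.

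The PP1 catalytic gene dis2 (SPOM_SPBC776.02C), named for a mutant that fails to separate sister chromatids, gave signals of 481.6, 465.8 and 420.3 on arrays 1, 2 and 3. The other PP1 catalytic gene, sds21 (SPOM_SPCC31H12.05C), which was found as a suppressor of the dis2 mutant, gave 269.3, 273.9 and 242.7. For both genes array 3 was the lowest, and every array of dis2 lay above every array of sds21. On the log2 scale the means were 8.83 ± 0.10 for dis2 and 8.03 ± 0.09 for sds21 (SD, n = 3). The leucine-rich repeat regulator of PP1, sds22 (SPOM_SPAC4A8.12C), gave signals of 499.9, 499.3 and 457.3 and a mean log2 signal of 8.92 ± 0.07 (SD, n = 3). Its values overlapped those of dis2, and array 3 was again the lowest.

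Within PP2A, the scaffold gene paa1 (SPOM_SPAP8A3.09C) had the highest signal of the 10 genes. It gave 710.8, 758.2 and 677.7 on the 3 arrays, a mean log2 signal of 9.48 ± 0.08 (SD, n = 3). The catalytic gene ppa1 (SPOM_SPAC823.15) gave 505.5, 465.3 and 455.8, with a mean log2 signal of 8.89 ± 0.08. Its paralogue ppa2 (SPOM_SPBC16H5.07C) gave 288.7, 278.3 and 277.0, with a mean log2 signal of 8.14 ± 0.03, the smallest SD among the 10 genes. The arrays of ppa1 and of ppa2 did not overlap.

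The regulatory genes of PP2A, pab1, par1 and par2, gave signals from 149.0 to 542.6, and its catalytic genes ppa1 and ppa2 from 277.0 to 505.5. A range over more genes tends to be wider, so the subunit classes were not compared. The B56-type gene par1 (SPOM_SPCC188.02), which acts in septation, gave 539.0, 542.6 and 509.9, or 9.05 ± 0.05 on the log2 scale (SD, n = 3). The second B56-type gene, par2 (SPOM_SPAC6F12.12), gave 172.8, 162.1 and 164.6, or 7.38 ± 0.05. The B55-type gene pab1 (SPOM_SPAC227.07C), which is required for normal cell shape and restrains entry into mitosis, gave 149.0, 152.1 and 156.4, or 7.25 ± 0.04. Of the PP2A genes, pab1 was the lowest. It was the 1 gene of the 10 for which array 3 was the highest, as it was for 39.4% of all genes. After centring the arrays on the median of all 10928 probe sets, this held for 4 of the 10 and for 68.5% of all genes.

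The PP6-type catalytic gene ppe1 (SPOM_SPCC1739.12), related to budding yeast SIT4, stood far below the others. It gave signals of 20.41, 19.89 and 17.45, or 4.26 ± 0.12 on the log2 scale (SD, n = 3), which was the largest SD of the 10. The next gene up, pab1, was 2.99 higher on the log2 scale, and the other 9 genes spanned 2.23 from pab1 to paa1. The percentile of ppe1 among the 2896 genes with an assigned probe set was 4.13, which put it in the lowest 5% of their mean signals.

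**Figure D1:**
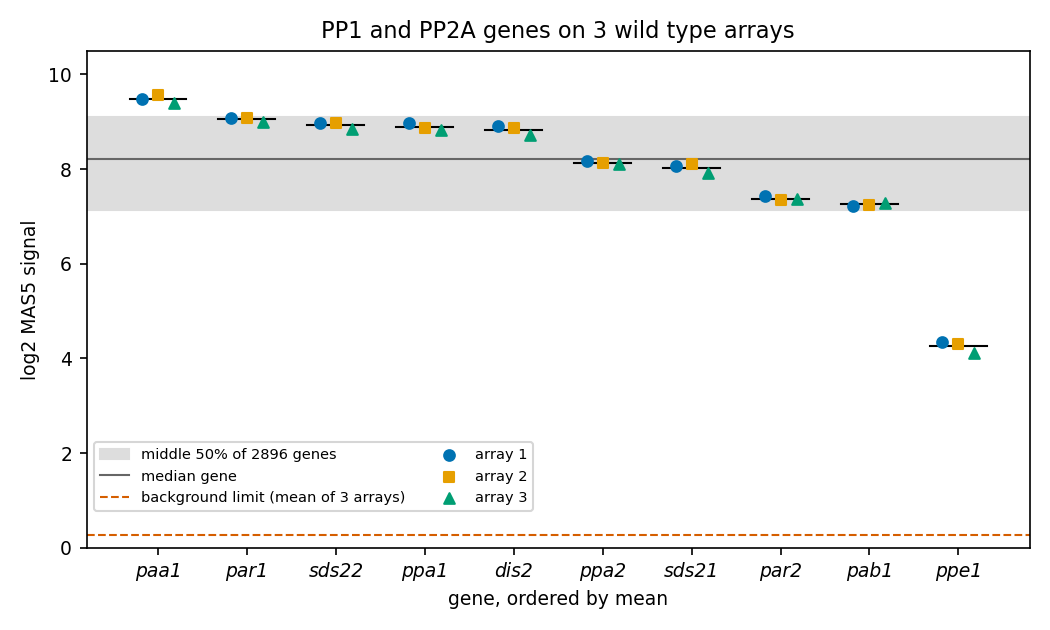
Log2 MAS5 signal of the 10 phosphatase genes (points, 1 per array; short bars, means), beside the middle 50% of all 2896 genes (grey band), the median gene (grey line) and the mean background limit (dashed line). The genes run from paa1 at 9.48 to ppe1 at 4.26, and all lie above the limit.

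All 10 genes were above background. The limit was the 95th percentile of the signal of 2601 probe sets of another yeast on the same array, which was a signal of 1.20, 1.24 and 1.18 on arrays 1, 2 and 3. By limma, 10 of 10 genes passed the test above this limit, against a background of 99.9% of all genes, so that the count is that of nearly any set of genes. Of the 10, the smallest margin was that of ppe1, 3.99 ± 0.05 (SE, n = 3) on the log2 scale (limma adjusted p = 1.8e-11), and the largest was that of paa1, 9.21 ± 0.04 (limma adjusted p = 1.2e-13). The limit is low, and mfm1, a pheromone gene of minus cells, also passed it in these cells labelled plus, by 2.98 (limma adjusted p = 1.47e-08). So did mam2, a receptor gene of minus cells, by 8.15 (limma adjusted p = 1.2e-13). Passing it is therefore weak ground for calling a gene expressed. Without regard to case, the symbols matched 15 probe sets, and the 5 in capitals, SDS22, PAB1, PAA1, PPA2 and PPE1, had identifiers outside the fission yeast gene table and were not used as members. SDS22 is the budding yeast counterpart of sds22, and its signals were 0.06, 0.0156 and 0.77, against a lowest value of 457.3 for sds22. PPE1 of budding yeast is a PP2A methylesterase and no counterpart of ppe1, and its signals were 1.08, 1.0 and 0.493. None of the 15 signals of these 5 probe sets passed the limit, and the highest was 1.09. These 5 are among the 2601 probe sets that set the limit, and about 95% of those lie below it by construction. The count therefore tests nothing.

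In mean log2 signal the genes were ordered paa1, par1, sds22, ppa1, dis2, ppa2, sds21, par2, pab1 and ppe1. The values of sds22, ppa1 and dis2 overlapped over the arrays, and these 3 genes could not be put in order. The difference between sds22 and ppa1 was 0.03 and ran from -0.02 to 0.10 over the arrays, and that between ppa1 and dis2 was 0.06 and ran from -0.001 to 0.12. For the other 7 of 9 neighbouring pairs the values did not overlap. The closest of these were ppa2 and sds21, which differed by 0.10 with a range from 0.02 to 0.19. Among all 45 pairs of the 10 genes, 42 did not overlap, and among all pairs of fission yeast genes 94.8% did not, so that separation between 2 genes was the usual case on these arrays.

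Set among all genes, the members lay on both sides of the middle. The median log2 signal of the 10 was 8.48 and that of all genes was 8.22, and 5 of the 10, namely paa1, par1, sds22, ppa1 and dis2, were above the latter. In the top 25% of genes was 1 member, paa1, and in the bottom 25% was 1 member, ppe1, against 25% of all genes in each. The percentile among all genes was 84.1 for paa1, 73.8 for par1, 70.4 for sds22, 69.4 for ppa1 and 67.4 for dis2. It was 47.3 for ppa2, 43.6 for sds21, 29.2 for par2 and 26.9 for pab1.

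The PP1 catalytic genes were compared first. PP1 activity is shared between dis2 and sds21, whose products are closely related and cover for each other in growth. The log2 signal of dis2 exceeded that of sds21 by 0.84, 0.77 and 0.79 on arrays 1, 2 and 3, a mean difference of 0.80 ± 0.04 (SD, n = 3). As a ratio of signals this was 1.74, with a range over the arrays from 1.70 to 1.79. The difference had the same sign on 3 of 3 arrays, but an exact two-sided sign-flip permutation test of 3 values cannot go below p = 0.25, and p was 0.25. Of all fission yeast genes, 688 (23.8%) lay between dis2 and sds21 in the order of mean signal.

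The PP2A catalytic genes gave a difference of similar size. Their products are also closely related, and cells need at least one of ppa1 and ppa2 to grow. The log2 signal of ppa1 exceeded that of ppa2 by 0.81, 0.74 and 0.72, a mean of 0.76 ± 0.05 (SD, n = 3). The ratio of signals was 1.69, from 1.65 to 1.75 over the arrays, and ppa1 was higher on 3 of 3 arrays (exact sign-flip permutation test, two-sided, p = 0.25). Between ppa1 and ppa2 lay 639 genes (22.1%).

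The B56-type regulatory genes showed the widest of the 3 differences. The log2 signal of par1 exceeded that of par2 by 1.64, 1.74 and 1.63, a mean of 1.67 ± 0.06 (SD, n = 3). This is a signal 3.19 times that of par2, from 3.10 to 3.35 over the arrays, and it was higher on 3 of 3 arrays (exact sign-flip permutation test, two-sided, p = 0.25). Between par1 and par2 lay 1292 genes (44.6%). Adjusted over the 3 pairs by the Benjamini-Hochberg method, each p was 0.25, the smallest possible. In each pair the SD of the difference was at most 0.062, far below the difference itself.

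The arrays also show how far probe sets assigned to the same gene can differ in signal. For 14 genes there were several probe sets, and the difference between the highest and the lowest of a gene's probe sets had a median of 0.33 on the log2 scale. It ran from 0.005 for the ribosomal protein gene rps3002 to 5.34 for the helicase gene tlh2, and was at least 9.97 for the malate transporter gene mae1, whose lowest probe set did not pass the background limit on any array. Several of these genes belong to repeated families, such as histones and wtf genes, so they are not typical of all genes. The difference between dis2 and sds21 was exceeded by 5 of the 14 genes, that between ppa1 and ppa2 by 5 and that between par1 and par2 by 3. The 5 were the same in both cases, namely wtf20, wtf9, wtf13, tlh2 and mae1. Their lowest probe sets were dim, at signals of 22.42, 18.38, 10.45, 4.187 and 0.2725, whereas the paralogues compared gave 162.1 to 542.6. In the remaining genes the difference was at most 0.58, that of wtf5. Where the lowest probe set had a signal of at least 160.1, that of mfm3, the difference was at most 0.43, that of hhf3. Differences of these sizes thus also occurred between probe sets assigned to the same gene, but only where the lowest probe set was dim. Whether the probes of one paralogue also bind the transcript of the other was not tested.

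**Figure D2:**
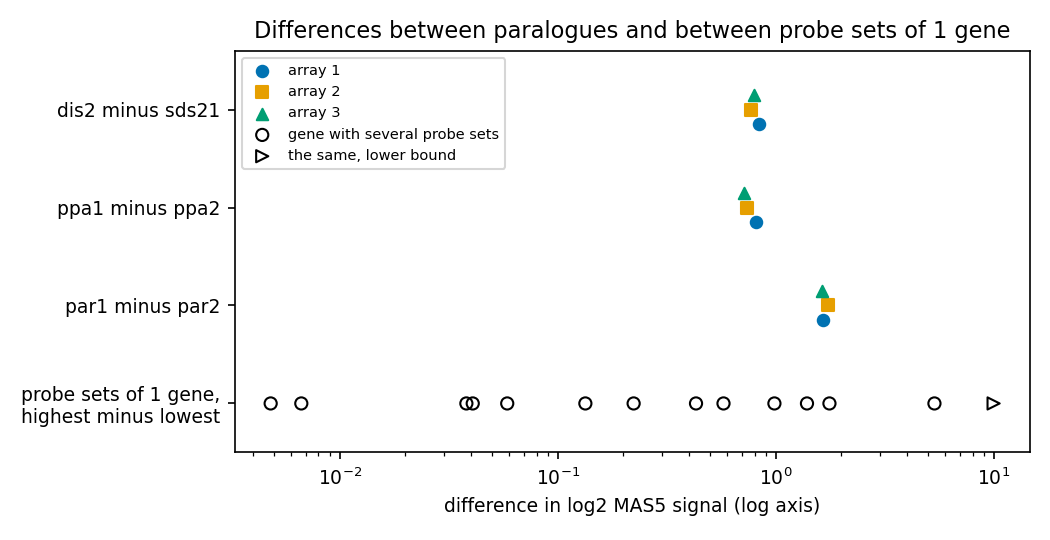
Difference in log2 MAS5 signal for the 3 pairs of paralogues (filled points, 1 per array) and between the highest and lowest probe sets of the 14 genes with several (open symbols), on a log axis; the open triangle is a lower bound, for mae1. The pairs lie at 0.80, 0.76 and 1.67, inside the range of the open circles from 0.005 to 5.34.

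The highest array exceeded the lowest by 4.21% for ppa2, the narrowest, and by 16.9% for ppe1, the widest. The SD exceeded the all-gene median of 0.06 in 6 of the 10 genes. With the values as deposited, the catalytic subunits dis2 and sds21 deviated from their means in the same direction on each array, by 0.08 and 0.04 on array 1, by 0.03 and 0.07 on array 2 and by -0.11 and -0.11 on array 3. After centring on the median of all 10928 probe sets, this no longer held on array 2, where dis2 was at its mean (-0.0005) and sds21 was 0.03 above. In the deposited values sds22, par1 and ppe1 also lay above their means on arrays 1 and 2 and below on array 3. The pattern was thus not particular to dis2 and sds21, and its share among all genes was not counted. As deposited, array 3 gave the lowest signal for 8 of the 10 genes, that is for all but pab1 and par2, while it gave the lowest for 34% of all genes. This count was chosen after the values were seen, and it differed between the scalings used. It was 7 after quantile normalization, against 30.1% of all genes, and 4 after median centring, where dis2, sds21, sds22 and ppe1 were left and 13.7% of all genes had array 3 as the lowest. The median used for centring includes probe sets that are not of fission yeast genes, and after it array 3 was the highest for 68.5% of all genes. As deposited, the median signal of the fission yeast genes was 298.2, 302.2 and 296.1 on arrays 1, 2 and 3. Centring on these genes alone was not run.

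**Figure D3:**
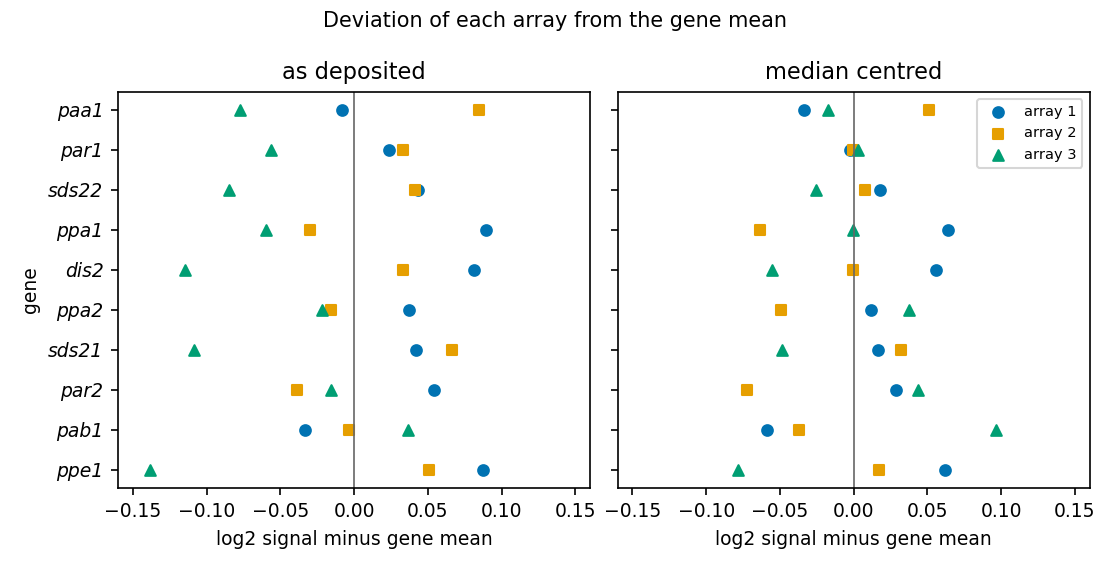
Log2 signal on each array minus the mean of the gene over the 3 arrays, with the values as deposited (left) and after centring on the median of all 10928 probe sets (right). Array 3 (triangles) is lowest for 8 genes on the left and for 4 on the right.

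With 1 group of 3 arrays, a pattern across arrays does not single out similar genes. For each member, between 83 and 164 of the other 2895 genes had a Pearson correlation over 0.99 with it across the 3 arrays, so no gene was named for a like pattern. In gene order along the chromosomes, no 2 members were neighbours. The closest were sds22 and ppa1, with 17 protein-coding genes between them, and the members of each compared pair lay on different chromosomes.

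Other phosphatase genes and known partners were taken from 4 lists of 48 entries in all, of which 30 were measured. The other entries matched none of the 2896 genes, which does not mean that the array lacks probes for them. All 30 passed the test above background (limma adjusted p at most 6.78e-10), again against 99.9% of all genes. Their median log2 signal was 7.61, with 2 genes in the top 25% and 13 in the bottom 25%.

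Partners of PP1 had 6 of 10 entries measured, with a median of 7.81. The highest were rif1, which brings PP1 to replication origins, at 8.85 ± 0.05 with signals of 447.7, 459.5 and 480.4, and klp5, a kinesin-8 motor that docks PP1, at 8.12 ± 0.05 with signals of 289.4, 274.7 and 270.9. The lowest were klp6, the partner motor of klp5, at 5.21 ± 0.13 with signals of 38.63, 39.27 and 33.34, and the spindle pole body gene cut12 at 6.94 ± 0.14. Here 2 of the 6 were in the bottom 25% of genes.

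Partners and regulators of PP2A and PP6 had 6 of 15 entries measured, with a median of 8.002. The highest were zds1, whose budding yeast counterpart regulates B55-type PP2A, at 8.60 ± 0.10, and sds23, an inhibitor of PP2A-type phosphatases, at 8.32 ± 0.17 with signals of 344.3, 336.5 and 279.3. The lowest were igo1, the endosulfine-type inhibitor of B55-type PP2A, at 6.24 ± 0.13 with signals of 80.02, 68.26 and 79.08, and cek1, a kinase related to Greatwall, at 7.47 ± 0.04. In the bottom 25% of genes was igo1 alone of these 6.

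Other serine and threonine phosphatases had 11 of 16 entries measured, with a median of 7.62. The highest were ptc3, of the PP2C type, at 9.23 ± 0.06 with signals of 580.1, 593.6 and 630.3, and ppb1, the calcineurin catalytic subunit, at 9.03 ± 0.13. The lowest were ptc1, also of the PP2C type, at 3.73 ± 0.20 with signals of 15.51, 12.24 and 12.26, and nem1, a lipid-regulating phosphatase, at 4.86 ± 0.07. The entry ppt1 matched by symbol a gene with the synonym coq2, an enzyme of coenzyme Q synthesis and not a phosphatase, and without it the median was 7.35 over 10 genes. In the bottom 25% were 5 genes of this list, with or without ppt1.

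Tyrosine and dual-specificity phosphatases were all measured and had the lowest median of the lists, 5.89 over 7 genes, with 5 in the bottom 25%. The highest were stp1, a small tyrosine phosphatase, at 9.47 ± 0.05 with signals of 682.2, 722.0 and 721.3, and pyp3, which acts on Cdc2, at 7.60 ± 0.11. The lowest were clp1, the Cdc14-type phosphatase of mitotic exit, at 4.55 ± 0.20 with signals of 25.20, 19.95 and 25.45, and pyp2, which acts on the stress MAP kinase, at 4.90 ± 0.09. The members and all lists but this one had medians above 7.

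**Figure D4:**
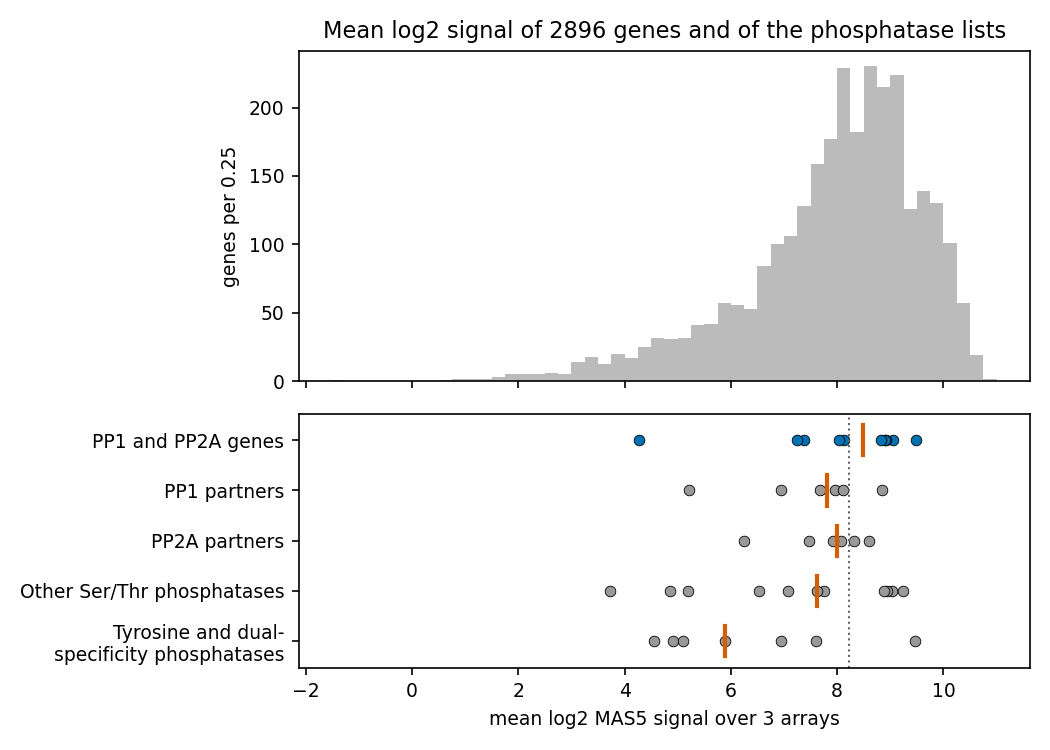
Histogram of mean log2 MAS5 signal of 2896 fission yeast genes (top) and the same value for the 10 PP1 and PP2A genes and the measured genes of the 4 lists (bottom; points, genes; vertical bars, list medians; dotted line, median of all genes). The medians run from 8.48 for the PP1 and PP2A genes to 5.89 for the tyrosine and dual-specificity phosphatases.

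Genes tied to the strain label were examined, but they did not settle the identity of the samples. The genes of the marker alleles gave mean log2 signals of 9.86 for leu1, 9.14 for ade6 and 9.61 for ura4, and a probe outside an altered part of a gene checks nothing. Receptor genes of both mating types were above background, map3 of plus cells at 8.68 and mam2 of minus cells at 8.42, so these genes did not set the mating type apart. The plus-cell pheromone gene map2 gave 3.86, and the minus-cell pheromone genes mfm1, mfm2 and mfm3 gave 3.25, 2.14 and 7.33 (mfm2 and mfm3 were added after the values were seen). The value of map2 lay within the range of the minus-cell genes, so the pheromone genes did not set the mating type apart either.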

How the data were processed

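The authors deposited a linear signal intensity for each probe set, which they made with MAS5, version 5.0, per the submitters' processing notes and design text. The scanner, the mask and the scaling target are not given in the sources used here. With 2% trimmed from each end, the mean was 150.04 for all 3 arrays, so intensities were used as deposited and turned into log2. Of 10928 probe sets, 2914 had 1 gene in the fission yeast gene table of assembly ASM294v3, giving 2896 genes after averaging probe sets of a gene. No gene was assigned to 5224 probe sets, and these were not counted among all genes. Another 2601, with capitalised symbols, were treated as those of another yeast and set the background limit (95th percentile per array). No genome build was named, so no coordinates are given. Log2 signal minus the limit was tested against 0 with limma 3.58.1 (lmFit, eBayes, two-sided, Benjamini-Hochberg over 2896 genes, threshold 0.05) in R 4.3.3, tested on simulated data. Paralogues were compared by within-array differences with an exact sign-flip permutation test. The number of arrays limits the precision. Members and lists were chosen with earlier results of these data known. Named genes were all members and the 2 highest and 2 lowest of each list. Alternatives were other offsets, scalings, limits, filters, probe set rules and priors, and leaving out each array. Median centring and quantile normalization used all 10928 probe sets.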

Additional observations from a re-analysis of the deposited data

How the results depend on the processing

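The count of members above background was 10 in all alternatives but the one that tested only genes above the 10th percentile of mean signal. There ppe1 was no longer tested and the count was 9 of 9 (and 23 of 23 for the listed other phosphatase genes and partners, which were 30 of 30 otherwise). The 3 differences between paralogues kept their direction in 7 of 7 alternatives each, and ran from 0.76 to 0.82 for dis2 minus sds21, from 0.72 to 0.77 for ppa1 minus ppa2 and from 1.58 to 1.69 for par1 minus par2, the lowest in each case with a pseudocount of 16. These ranges include the settings that left out an array, and in each pair 1 of those settings gave the highest value. With an array left out, the smallest possible exact p was 0.5. Mean log2 signals moved by less than the SD between arrays in 66 of 70 cases, the others being ppa2, pab1, par2 and ppe1 with a pseudocount of 16, where ppe1 was 5.14 in place of 4.26. A comparison of the proteins of each pair was planned but not run, since no protein sequences were used here. No paired analysis was possible because there was only 1 group and hence no second group to pair with it; the differences between paralogues were taken within each array. With dim genes such as ppe1, signal is closer to background and the spread between arrays is larger, with a median SD of 0.11 in the lowest 25% of genes against 0.04 in the highest 25%.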

Other observations

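The Greatwall and endosulfine branch, which inhibits B55-type PP2A through phosphorylated Igo1, was measured from kinase to target, and was singled out after the values were seen. The Greatwall-type kinase gene ppk18 gave signals of 211.4, 269.5 and 251.4, or 7.92 ± 0.18 on the log2 scale (SD, n = 3), and its SD was larger than that of any of the 10 PP1 and PP2A genes. The B55 gene pab1, the target of this branch, gave 7.25 ± 0.04. The regulatory partner of ppe1, ekc1, a SAPS-domain subunit, gave signals of 275.0, 293.0 and 246.2, or 8.08 ± 0.13. These are signals of different probe sets, and no level was compared between them.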
